A study of Mus musculus with 6 samples.

Results

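Macrophages are the most numerous immune cells of fat, and the 10 genes described here mark them in general or mark the populations that live in the tissue. The members were taken by symbol from a list of 4 pan-macrophage genes (Adgre1, Csf1r, Mpeg1 and Lyz2) and 6 genes of resident macrophages (Mrc1, Cd163, Lyve1, Folr2, F13a1 and Timd4). All 10 were present among the 15176 genes of the deposited table, and all 10 passed the filter on low values. Mice were kept on a high-fat diet (HFD), and total RNA of their subcutaneous inguinal white fat (iWAT) was sequenced. There were 2 Steap4AKO libraries (replicates 2 and 3), in which Steap4 was deleted in adipocytes, and 4 Steap4f/f libraries (replicates 1, 2, 5 and 6), which carried the floxed allele and served as controls. Both genotypes were fed the HFD. The sources used here do not give the Cre line, the age and sex of the mice, or whether each library came from 1 mouse. The p-values therefore measure the spread between these libraries, which may be partly technical.

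Tissue macrophages depend on signalling through the CSF1 receptor, take up lipid, dying cells and debris, and in obesity collect around stressed adipocytes. Resident macrophages of fat lie along vessels and carry scavenger receptors such as CD163 and the mannose receptor, while macrophages that accumulate in obese fat carry a separate, lipid-handling programme. In whole tissue, a different number of macrophages and a different amount of RNA of these genes per macrophage cannot be told apart.

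The deposited values are gene counts that the authors normalized with DESeq2, called normalized counts below, and they summed to 16573561 and 17979641 in Steap4AKO and to 18846321 to 20547925 in Steap4f/f. The library of Steap4AKO replicate 2 stood apart from the other 5. Of all 15176 genes, 1080 were more than 2-fold above every other library there, while 30 genes were so in Steap4AKO replicate 3 and 20 to 148 in the Steap4f/f libraries. Its labelled depot was not borne out by its markers. Tbx15, a transcription factor of subcutaneous fat, was at 1.37 there, at 316 in Steap4AKO replicate 3 and at 661 to 1330 in Steap4f/f. Shox2 of the same list was at 16.8, 418 and 293 to 619, and Hoxc10 at 53.6, 497 and 614 to 743. Hoxa7 (270, 656 and 420 to 532) and Sncg (7680, 14587 and 12069 to 17482) were lower there by less. The 7 mesothelial and visceral fat markers summed to 2219 and 24.4 in Steap4AKO replicates 2 and 3, and to 57.4 to 453 in Steap4f/f. All 7 were highest in Steap4AKO replicate 2, as were 27% of all tested genes. The 8 adipocyte markers summed to 283985 in that library, to 399304 in Steap4AKO replicate 3 and to 391184 to 441953 in Steap4f/f. Of these, Lep went the other way, with 55202 and 43434 in Steap4AKO and 8106 to 22141 in Steap4f/f. Cidec in Steap4AKO replicate 2, at 39559, lay inside the 35787 to 49477 of Steap4f/f. The 10 skeletal muscle markers summed to 2108 and 15374 in Steap4AKO and to 121257 to 648232 in Steap4f/f. Steap4 itself had 8313 and 8014 normalized counts in Steap4AKO, against 8310 to 17018 in Steap4f/f, so that its level in whole tissue does not check the genotype labels. For the 10 macrophage genes and the lists of related genes, values of Steap4AKO replicate 3 alone are given beside those of both Steap4AKO libraries.

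None of the 10 macrophage genes passed the test of Steap4AKO against Steap4f/f (limma, Benjamini-Hochberg adjusted p under 0.05 over 15006 genes, of which 71 or 0.473% passed). All 10 had a higher mean log2 value in Steap4AKO, where 52.2% of all tested genes did, and 7 of 10 had one without Steap4AKO replicate 2. At an unadjusted limma p under 0.05, 4 of the 10 were higher, namely Mpeg1, Adgre1, Csf1r and F13a1, and none was lower, where 8.45% of all tested genes were higher and 9.66% lower. Without Steap4AKO replicate 2 none of the 10 was below that p in either direction, and 3.55% of tested genes were higher by it. The pan-macrophage genes had a median log2 difference of 1.27 and the resident genes one of 0.47, beside 0.02 over all genes tested. With the level of skeletal muscle genes as a covariate these medians turned to -0.74 and -0.39, and no macrophage gene passed the test in that fit either. Set against Steap4f/f alone, Steap4AKO replicate 2 gave medians of 2.32 and 0.88, and Steap4AKO replicate 3 gave 0.22 and 0.10. The Steap4f/f libraries lay between -0.41 and 0.33 for the pan-macrophage genes and between -0.19 and 0.25 for the resident genes. Steap4AKO replicate 3 was thus inside the range of the Steap4f/f libraries for both groups of genes, and Steap4AKO replicate 2 was above it.

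**Figure D1:**
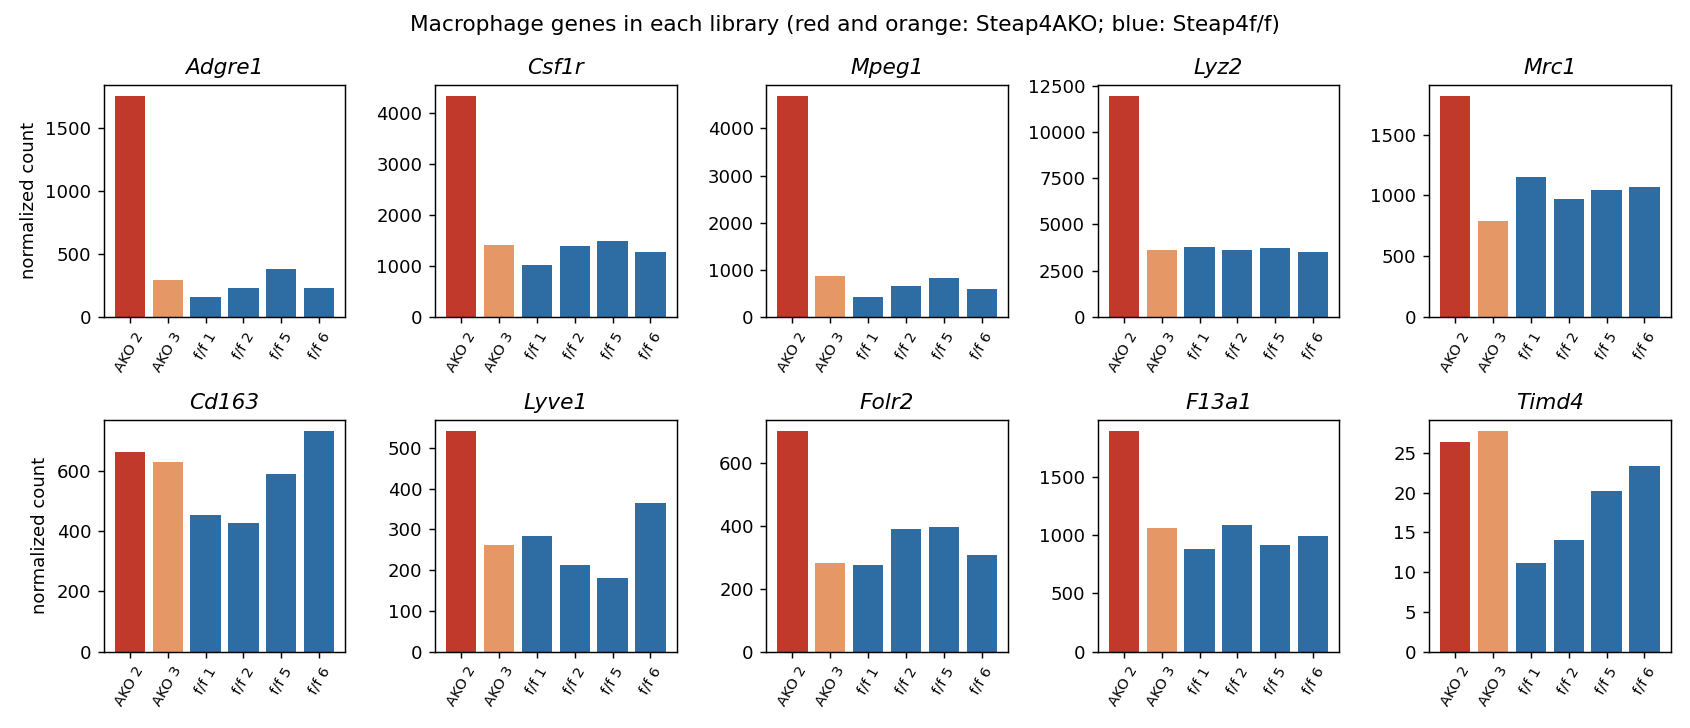
Normalized counts of the 10 macrophage genes in each library, 1 panel per gene with its own axis from 0; red and orange bars are Steap4AKO replicates 2 and 3, blue bars are Steap4f/f replicates 1, 2, 5 and 6. Steap4AKO replicate 2 is the highest bar for 8 genes, while Cd163 is highest in Steap4f/f replicate 6 and Timd4 in Steap4AKO replicate 3.

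Adgre1 encodes F4/80, an adhesion receptor on the surface of mouse macrophages (chromosome 17, 57358691 to 57483527, GRCm38). It had 1750.1 and 292 normalized counts in Steap4AKO replicates 2 and 3, against 159.6, 229, 375 and 232 in Steap4f/f replicates 1, 2, 5 and 6. Steap4AKO replicate 3 lay inside the Steap4f/f values, which themselves spanned 2.35-fold, so the groups overlapped. The mean was 4.10-fold higher in Steap4AKO, a log2 difference of 1.59 (SE 0.65, 95% interval 0.09 to 3.08, limma adjusted p = 0.253). Without Steap4AKO replicate 2 the log2 difference was 0.30 (limma adjusted p = 0.876).

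Csf1r, the receptor for the growth factors CSF1 and IL-34 (chromosome 18, 61100598 to 61132149), had 4343 and 1408 normalized counts in Steap4AKO, against 1028, 1399, 1481 and 1264 in Steap4f/f. Only replicate 2 of Steap4AKO was above the controls, and the groups overlapped. The log2 difference was 0.95 (SE 0.39, 95% interval 0.04 to 1.86, limma adjusted p = 0.259), and it was 0.14 without Steap4AKO replicate 2.

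Mpeg1 encodes perforin-2, a pore-forming protein with which macrophages attack engulfed bacteria (chromosome 19, 12460779 to 12465283). It had 4690.1 and 872 normalized counts in Steap4AKO, against 427, 644, 831 and 583 in Steap4f/f. Both Steap4AKO libraries were above all 4 Steap4f/f libraries, replicate 3 by a small margin over Steap4f/f replicate 5. Its log2 difference of 1.74 was the largest of the 10 (SE 0.59, 95% interval 0.39 to 3.10, limma adjusted p = 0.194), and it was 0.53 without Steap4AKO replicate 2 (limma adjusted p = 0.693).

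Lyz2 encodes lysozyme M, the antibacterial enzyme of macrophages and neutrophils (chromosome 10, 117277331 to 117282321). It had 11951 and 3589 normalized counts in Steap4AKO, against 3777, 3593, 3708 and 3508 in Steap4f/f. The Steap4f/f libraries were within 1.08-fold of each other, the narrowest spread of the 10 genes, and Steap4AKO replicate 3 fell among them. The log2 difference was 0.85 (SE 0.40, 95% interval -0.08 to 1.77, limma adjusted p = 0.31), and it was -0.02 without Steap4AKO replicate 2.

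Lyz2 has a near copy, Lyz1, next to it on the same strand (chromosome 10, 117287797 to 117292868). The transcripts of this pair were identical at 1211 of 1262 aligned bases (96.0%), with a longest shared run of 118 bases, so that reads shared between them can be assigned to either and both values are uncertain. Lyz1 had 335 and 284 normalized counts in Steap4AKO, against 85.7, 79.9, 109 and 164 in Steap4f/f. Both Steap4AKO libraries were above every Steap4f/f library, with a log2 difference of 1.54 (SE 0.33, limma adjusted p = 0.0866). Summing the pair gave a log2 difference of 0.88 for lysozyme as a whole (limma adjusted p = 0.281), an alternative chosen after seeing the data. The start regions of the pair, from 250 bases before to 50 after each RefSeq start site (GRCm38.p6, minus strand, chr10:117282223-117282522 for Lyz2 and chr10:117292819-117293118 for Lyz1), are shown to let the copies be compared. They were identical at 249 of 298 aligned bases (83.6%), and capitals mark the bases without an identical partner, which lie mostly in the distal part of the windows.
Lyz2: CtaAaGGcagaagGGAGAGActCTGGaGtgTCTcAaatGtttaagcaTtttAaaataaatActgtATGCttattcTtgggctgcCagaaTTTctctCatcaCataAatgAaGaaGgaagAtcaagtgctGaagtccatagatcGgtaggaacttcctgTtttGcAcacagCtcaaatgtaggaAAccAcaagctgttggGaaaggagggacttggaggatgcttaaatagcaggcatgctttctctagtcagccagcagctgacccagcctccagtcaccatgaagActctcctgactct
Lyz1: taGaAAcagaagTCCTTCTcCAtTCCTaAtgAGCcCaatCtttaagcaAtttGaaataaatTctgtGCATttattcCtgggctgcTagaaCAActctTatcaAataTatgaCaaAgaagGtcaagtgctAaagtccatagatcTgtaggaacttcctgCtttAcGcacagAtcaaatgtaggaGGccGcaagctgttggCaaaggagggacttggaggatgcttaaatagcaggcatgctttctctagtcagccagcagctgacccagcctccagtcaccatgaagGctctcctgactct

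Taken by library, all 4 pan-macrophage genes were more than 2-fold above every other library in Steap4AKO replicate 2, by 2.93-fold (Csf1r) to 5.38-fold (Mpeg1), where 6.48% of all tested genes were. None of the 6 resident genes was, and their highest margin was 1.77-fold, for Folr2. Steap4AKO replicate 2 was the highest library for 8 of the 10 genes, and for 27% of all tested genes. Steap4AKO replicate 3 was above all 4 Steap4f/f libraries for Mpeg1 and Timd4 (24.4% of all tested genes) and below all of them for Mrc1 (23.4% of all tested genes). Across both genotypes 2 of the 10 genes did not overlap, Mpeg1 and Timd4, both higher in Steap4AKO, where 14.1% of tested genes were higher and 14.4% lower without overlap.

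Among the resident genes, Mrc1 encodes the mannose receptor CD206, an endocytic receptor for glycoproteins (chromosome 2, 14229392 to 14332057). It had 1819 and 789 normalized counts in Steap4AKO, against 1155, 967, 1043 and 1067 in Steap4f/f. The Steap4AKO libraries lay on opposite sides of the controls, replicate 2 above all 4 and replicate 3 below all 4. The log2 difference was 0.18 (SE 0.29, 95% interval -0.50 to 0.86, limma adjusted p = 0.769), and it was -0.42 without Steap4AKO replicate 2 (limma adjusted p = 0.544).

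Cd163 encodes the scavenger receptor that clears haemoglobin bound to haptoglobin (chromosome 6, 124304656 to 124330527). It had 663 and 630.3 normalized counts in Steap4AKO, against 455, 426, 589 and 735 in Steap4f/f. Both Steap4AKO libraries lay within the Steap4f/f values, and replicate 2 exceeded replicate 3 by 1.05-fold for Cd163 and by 3.08-fold for Csf1r. Cd163 had a log2 difference of 0.26 (SE 0.24, 95% interval -0.28 to 0.81, limma adjusted p = 0.581), with 0.23 from Steap4AKO replicate 3 alone and 0.30 from replicate 2 alone.

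Lyve1 is a hyaluronan receptor of perivascular macrophages and of lymphatic endothelium (chromosome 7, 110850607 to 110863239). It had 542 and 261 normalized counts in Steap4AKO, against 283, 213, 181 and 365 in Steap4f/f, so that replicate 2 of Steap4AKO was above the controls and replicate 3 among them. Lyve1 had a log2 difference of 0.58 (SE 0.37, 95% interval -0.28 to 1.44, limma adjusted p = 0.442), and 0.05 without Steap4AKO replicate 2. The 6 lymphatic markers summed to 2339 and 789 in Steap4AKO, against 673 to 791 in Steap4f/f. In Steap4AKO replicate 2, 5 of these 6 markers were highest (27% of all tested genes). Of their defining members, Prox1 had 39.7 and 2.71 normalized counts in Steap4AKO and 0 to 14.5 in Steap4f/f, where it was listed at 0 in replicate 1, and Ccl21a had 1021 and 39.4 in Steap4AKO and 12.2 to 45.7 in Steap4f/f. The part of lymphatic vessels in the Lyve1 values was not tested.

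Folr2 encodes folate receptor beta, found on resident macrophages (chromosome 7, 101839988 to 101857194). It had 703 and 282 normalized counts in Steap4AKO, against 275, 390.3, 398 and 308 in Steap4f/f, with replicate 3 of Steap4AKO near the lowest control. Folr2 had a log2 difference of 0.39 (SE 0.36, 95% interval -0.43 to 1.22, limma adjusted p = 0.581), and it was -0.26 without Steap4AKO replicate 2.

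F13a1 encodes the A subunit of coagulation factor XIII, which crosslinks fibrin and is made by macrophages, monocytes and platelets (chromosome 13, 36867178 to 37050244). It had 1903 and 1067 normalized counts in Steap4AKO, against 886, 1089.9, 918 and 999 in Steap4f/f, and replicate 3 of Steap4AKO was below 1 control. The log2 difference was 0.55 (SE 0.23, 95% interval 0.02 to 1.08, limma adjusted p = 0.258), and it was 0.14 without Steap4AKO replicate 2. Of 5 platelet markers 3 were measured, and Itga2b, Gp1bb and Ppbp summed to 78.2 and 63.7 in Steap4AKO, against 110.1 to 139 in Steap4f/f. For this sum both Steap4AKO libraries lay below all 4 Steap4f/f libraries, and Gp1bb was listed at 0 in Steap4AKO replicate 3.

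Of the 7 members searched, F13a1 was the only one with a searched motif in a RefSeq start region (GRCm38.p6). The search covered 9 start regions of these 7 members. It included no start region of Adgre1, Csf1r or Lyve1, so motifs near these genes were not tested. The motifs were GAGGAAGT, a core of the myeloid factor PU.1, TTGCGCAA of C/EBP factors and the MAF recognition element, searched on both strands. Of 32851 start regions in all, 3.20% held the first, 0.183% the second and 0.137% the third. The F13a1 window (chr13:37049164-37049463, minus strand) held GAGGAAGT starting 14 bases after the start site, in capitals below. The window is shown for this match, which is a match of letters and not a measured binding site.
F13a1: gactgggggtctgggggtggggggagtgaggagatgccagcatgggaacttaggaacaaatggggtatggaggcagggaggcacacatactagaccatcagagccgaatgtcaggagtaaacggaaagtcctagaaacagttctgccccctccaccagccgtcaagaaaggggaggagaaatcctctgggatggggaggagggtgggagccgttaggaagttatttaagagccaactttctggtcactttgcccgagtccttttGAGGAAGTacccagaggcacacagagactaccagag

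Timd4 encodes TIM-4, a receptor for phosphatidylserine on dying cells that marks long-lived resident macrophages (chromosome 11, 46810800 to 46844332). It was the lowest of the 10, with 26.4 and 27.8 normalized counts in Steap4AKO, against 11.2, 14.1, 20.2 and 23.3 in Steap4f/f. Both Steap4AKO libraries were above all controls, by a small margin over Steap4f/f replicate 6. The values correspond to few reads and the interval was wide, with a log2 difference of 0.68 (SE 0.56, 95% interval -0.62 to 1.98, limma adjusted p = 0.549), and 0.72 without Steap4AKO replicate 2. TIM-4 is also found on large peritoneal macrophages, whose 7 markers summed to 1405 and 1288 in Steap4AKO and to 869.7 to 1299.9 in Steap4f/f. Gata6, their defining transcription factor, had 171 and 321 in Steap4AKO and 116 to 301 in Steap4f/f. Naip1, the 1 marker below the filter on the mean, had 53.3 and 3.95 in Steap4AKO and was listed at 0 in all 4 Steap4f/f libraries. F5 had 77.5 and 6.91 in Steap4AKO and 4.77 to 20.1 in Steap4f/f, and Prg4 had 343 and 55.6 against 62.5 to 154. These 3 of the 7 were more than 2-fold above every other library in Steap4AKO replicate 2 (6.48% of all tested genes). The part of such cells in the Timd4 values was not tested.

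**Figure D2:**
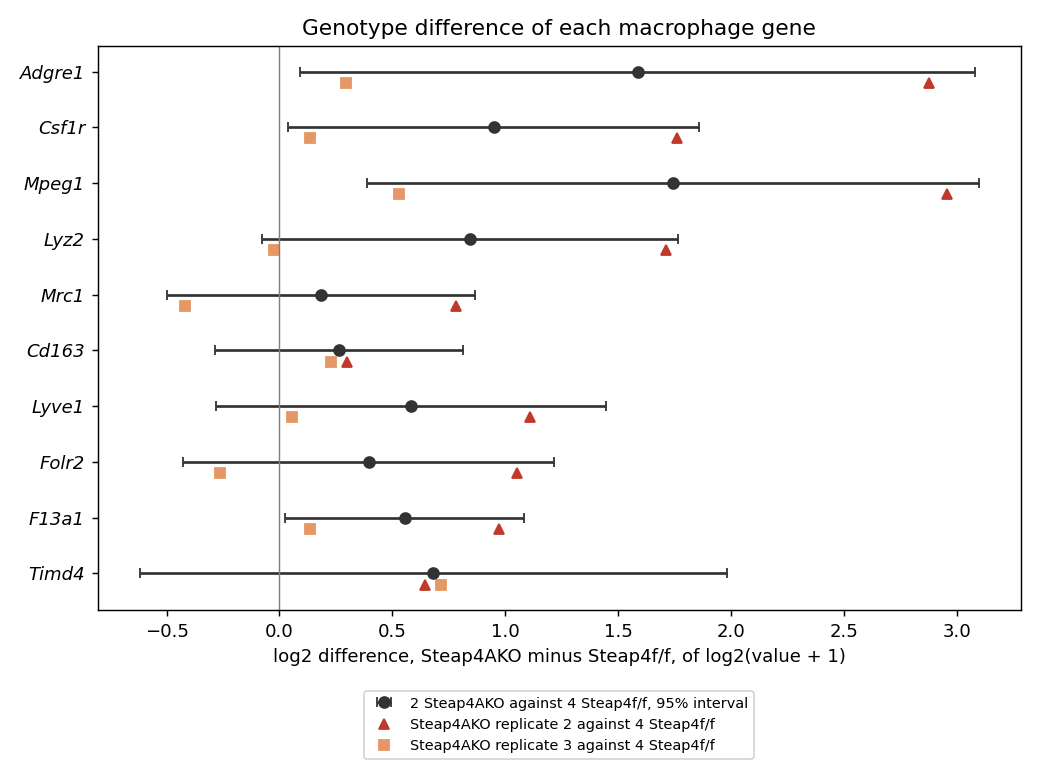
Difference between genotypes of each gene (Steap4AKO minus Steap4f/f) in log2(value + 1); black points with bars are both Steap4AKO libraries with 95% intervals from limma, red triangles and orange squares are Steap4AKO replicates 2 and 3 set singly against the 4 Steap4f/f libraries. The triangles of the 4 pan-macrophage genes lie between 1.71 and 2.95, while the squares of all 10 genes lie between -0.42 and 0.72.

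The balance between the members also differed by library, and a ratio of genes within a library does not depend on how libraries were scaled. Relative to Csf1r, Cd163 stood at 0.153 and 0.448 in Steap4AKO, against 0.442, 0.304, 0.398 and 0.581 in Steap4f/f. Steap4AKO replicate 2 was below all controls and replicate 3 was among them. Mrc1 per Csf1r was 0.419 and 0.561 in Steap4AKO, against 0.691 to 1.124 in Steap4f/f, and Folr2 per Csf1r was 0.162 and 0.2003 in Steap4AKO, against 0.244 to 0.279 in Steap4f/f. For these 2 genes both Steap4AKO libraries were below all 4 Steap4f/f libraries, as were 25.5% of all tested genes by their ratio to Csf1r, which was itself 3.36-fold above the Steap4f/f mean in Steap4AKO replicate 2. A count of 2 of the 9 other members is near that share. F13a1 per Csf1r was 0.438 and 0.758 in Steap4AKO and 0.62 to 0.863 in Steap4f/f, and Timd4 per Csf1r was 0.00608 and 0.0197 in Steap4AKO and 0.0101 to 0.0184 in Steap4f/f. Lyve1 per Csf1r overlapped, at 0.125 and 0.185 in Steap4AKO and 0.122 to 0.289 in Steap4f/f.

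The general macrophage genes did not keep 1 ratio either. Mpeg1 per Csf1r was 1.08 and 0.619 in Steap4AKO, against 0.416 to 0.561 in Steap4f/f. It was the 1 member whose ratio to Csf1r was above all 4 Steap4f/f libraries in both Steap4AKO libraries, as it was for 1.26% of all tested genes. That depended on the gene divided by. Mpeg1 per Adgre1 overlapped, at 2.68 and 2.99 in Steap4AKO and 2.22 to 2.81 in Steap4f/f. Adgre1 per Csf1r was 0.403 and 0.207 in Steap4AKO, against 0.155 to 0.253 in Steap4f/f. Lyz2 per Csf1r was 2.75 and 2.55 in Steap4AKO, inside the 2.50 to 3.68 of Steap4f/f. Lyz2 per Mpeg1 was 2.55 and 4.12 in Steap4AKO, below the 4.46 to 8.84 of Steap4f/f. Mrc1 and Folr2 stayed below all controls in both Steap4AKO libraries per Adgre1 and per Mpeg1. Shares of all genes were not computed for ratios to Adgre1 or Mpeg1. The mean log2 value of the 6 resident genes minus that of the 4 pan-macrophage genes was -3.08 and -1.72 in Steap4AKO, against -1.38, -1.69, -1.89 and -1.29 in Steap4f/f. Steap4AKO replicate 3 lay inside this range, and the genotype difference of -0.84 became -0.16 without Steap4AKO replicate 2.

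**Figure D3:**
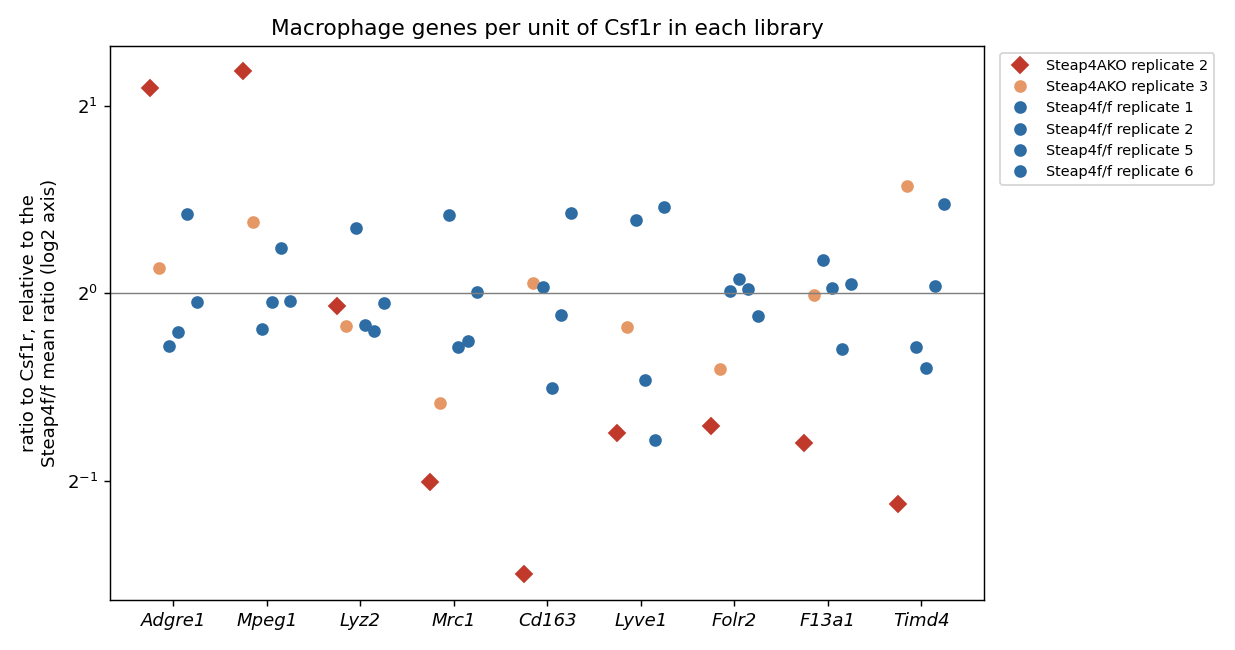
Ratio of each other macrophage gene to Csf1r in each library, divided by the mean Steap4f/f ratio, on a log2 axis; red diamonds are Steap4AKO replicate 2, orange points Steap4AKO replicate 3 and blue points the 4 Steap4f/f libraries. In Steap4AKO replicate 2 Adgre1 and Mpeg1 lie above the Steap4f/f points, and Mrc1, Cd163, Folr2, F13a1 and Timd4 lie below them.

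Levels of different genes were compared as normalized counts per kilobase of annotated exon. In Steap4f/f, Lyz2 stood at 2771, followed by Csf1r at 224, Folr2 at 222, Mrc1 at 166, F13a1 at 144, Mpeg1 at 143, Cd163 at 101, Lyve1 at 89.2, Adgre1 at 76.8 and Timd4 at 7.91. From Csf1r to Adgre1 every gene overlapped with its neighbour in this order over the 4 Steap4f/f libraries, as Cd163 (78.0 to 135) did with Lyve1 (61.9 to 125). Lyz2 and Timd4 stood clear of the others. In Steap4AKO replicate 2 the order after Lyz2 (9082) was Mpeg1 at 1082, Csf1r at 752, Adgre1 at 540.5, Folr2 at 455, Mrc1 at 285, F13a1 at 282, Lyve1 at 186, Cd163 at 121 and Timd4 at 12.2. Steap4AKO replicate 3 had Csf1r at 244, Mpeg1 at 201, Folr2 at 182, F13a1 at 158, Mrc1 at 124, Cd163 at 115, Adgre1 at 90.1 and Lyve1 at 89.3.

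The members also varied within Steap4f/f. Adgre1, Timd4, Lyve1 and Mpeg1 spanned 2.35-fold, 2.09-fold, 2.02-fold and 1.95-fold between their highest and lowest Steap4f/f libraries, and Cd163 1.72-fold. Csf1r, Folr2, F13a1, Mrc1 and Lyz2 spanned 1.44-fold, 1.45-fold, 1.23-fold, 1.19-fold and 1.08-fold. Steap4f/f replicate 5 was the highest control for Adgre1, Csf1r, Mpeg1 and Folr2, and Steap4f/f replicate 6 was so for Cd163, Lyve1 and Timd4. Steap4f/f replicate 1 was the lowest control for Adgre1, Csf1r, Mpeg1, Folr2, F13a1 and Timd4.

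Related genes were described by list, and the lists differed in how far Steap4AKO replicate 2 stood above the rest. All 20 genes of a second list of general macrophage and myeloid genes had a higher mean log2 value in Steap4AKO; their median log2 difference was 0.54 (0.02 over all genes tested), and none passed the test. Of these 20, 11 were more than 2-fold above every other library in Steap4AKO replicate 2, where 6.48% of all tested genes were. The median deviation of the 20 from the Steap4f/f mean was 1.48 in that library and -0.21 in Steap4AKO replicate 3. Cybb, the catalytic subunit of the phagocyte NADPH oxidase, had 1356 and 417 normalized counts in Steap4AKO, against 139 to 322 in Steap4f/f (limma adjusted p = 0.129). Cx3cr1, the fractalkine receptor, had 109.9 and 41.1 in Steap4AKO, against 4.797 to 21.7 in Steap4f/f (limma adjusted p = 0.168). Both genes were higher in each Steap4AKO library than in any Steap4f/f library, and both were named for their small p. In this list 3 of 20 genes were higher without overlap and 0 lower. Of all tested genes 14.1% were higher and 14.4% lower without overlap.

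A second list of 20 resident or alternatively activated macrophage genes had a median log2 difference of 0.12, with 12 higher and 8 lower means and none past the test. The Steap4AKO libraries lay on opposite sides of the Steap4f/f mean, with a median deviation of 0.46 in replicate 2 and -0.23 in replicate 3. In Steap4AKO replicate 2, 9 of the 20 were the highest of all libraries (27% of all tested genes). By more than 2-fold 1 of the 20 was so (6.48% of all tested genes). Retnla, which encodes the secreted protein RELM-alpha, had 2055 and 2171 normalized counts in Steap4AKO, against 909 to 1280.2 in Steap4f/f, a log2 difference of 0.93 (limma adjusted p = 0.0658). Siglec1, the sialic acid receptor CD169, had 784 and 711 in Steap4AKO, against 252 to 491 in Steap4f/f (limma adjusted p = 0.123). For these 2 genes Steap4AKO replicates 2 and 3 were alike and both above the controls. The same held for Arg1, named after its values were seen and low throughout. It had 38.7 and 31.9 in Steap4AKO, against 0 to 7.10 in Steap4f/f (limma adjusted p = 0.158). In this list 3 of 20 genes were higher and 1 lower without overlap, where 14.1% and 14.4% of all tested genes were. Clec10a, a C-type lectin, had 854 and 525 in Steap4AKO, against 868 to 1297 in Steap4f/f, with a log2 difference of -0.58 (limma adjusted p = 0.26). Mmp9, a matrix protease, had 108 and 68.6 in Steap4AKO, against 106 to 196 in Steap4f/f (limma adjusted p = 0.312).

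Of 16 growth factors, receptors and transcription factors of macrophages, 10 had higher and 6 lower means in Steap4AKO. Their median log2 difference was 0.20, and none passed the test. Their median deviation from the Steap4f/f mean was 0.38 in Steap4AKO replicate 2 and -0.02 in Steap4AKO replicate 3. The CSF1 receptor ligands did not follow Csf1r. Csf1 had 1193 and 1278 normalized counts in Steap4AKO, against 1080.4 to 1601 in Steap4f/f, and Il34 had 334 and 328 in Steap4AKO, against 261 to 689 in Steap4f/f. Spi1, which encodes PU.1, had 874 and 261 in Steap4AKO, against 220.0 to 297 in Steap4f/f, and so was above the controls in replicate 2 alone. Irf8, a myeloid transcription factor, had 891 and 369 in Steap4AKO, against 174 to 366 in Steap4f/f (log2 difference 1.23, limma adjusted p = 0.183). Tgfb1, a growth factor that shapes tissue macrophages, had 1785 and 1151 in Steap4AKO, against 693 to 1037 in Steap4f/f (limma adjusted p = 0.174). Cebpb had 1889 and 2118 in Steap4AKO, against 2411 to 3505 in Steap4f/f (log2 difference -0.49, limma adjusted p = 0.206), and Maf, a factor of resident macrophages, had 1554 and 1694 in Steap4AKO, against 1598 to 2664 in Steap4f/f (limma adjusted p = 0.336). Csf1, Il34, Spi1 and, below, Ccr2, Nr4a1 and Ace are named after their values were seen.

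Of 12 genes of lipid-associated macrophages, 11 had higher means in Steap4AKO, the median log2 difference was 1.32, and none passed the test. In Steap4AKO replicate 2, 8 of them were more than 2-fold above every other library, where 6.48% of all tested genes were. That library's median deviation from the Steap4f/f mean was 2.52 for these genes, and it was 0.06 in Steap4AKO replicate 3. Itgax, which encodes CD11c, had 1677 and 222 normalized counts in Steap4AKO, against 61.1 to 148 in Steap4f/f (limma adjusted p = 0.13). Mmp12, the macrophage elastase, had 4361 and 355 in Steap4AKO, against 47.7 to 209.8 in Steap4f/f (limma adjusted p = 0.173). Both Steap4AKO libraries were above the controls for Itgax and Mmp12, which were named for their small p, and replicate 2 was far above replicate 3. In this list 4 of 12 genes were higher without overlap and 0 lower, where 14.1% of all tested genes were higher and 14.4% lower. Fabp5, a fatty acid carrier, had 4472 and 3187 in Steap4AKO, against 3591 to 5589 in Steap4f/f (limma adjusted p = 0.406).

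Genes nearest to the pan-macrophage profile over the 6 libraries, by root mean square difference of centred log2 values, were Arhgap30 (0.0918), Clec4a2 (0.11), Ptprc (0.118), Cd83 (0.127) and Lcp1 (0.129), all with a mean of at least 50. The 4 members lay at 0.217 to 0.307 from their own mean profile. Ptprc, the pan-leukocyte antigen CD45, had 1509 and 386 normalized counts in Steap4AKO, against 280.2 to 422 in Steap4f/f. Nearest to the resident profile were Zbtb33 (0.0467), 9330102E08Rik (0.0567), Wars (0.0665), Traf3 (0.0676) and Blvra (0.0729), and the 6 resident members lay at 0.148 to 0.338 from it. The genes named here were picked as the nearest of all non-member genes with a symbol and a mean of at least 50, so that their closeness is by construction. Among the members, F13a1 was the nearest to the resident profile and Csf1r to the pan-macrophage profile.

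Summed markers of monocytes, B cells, T cells, dendritic cells and neutrophils, and the 1 eosinophil marker measured, were highest in Steap4AKO replicate 2 as well. Taken singly, all measured B cell, T cell and neutrophil markers were highest there. Of the monocyte markers only 4 of 8 were, and of the dendritic cell markers 4 of 8, where 27% of all tested genes were. The 8 measured of 9 monocyte markers summed to 5300.3 and 3563 normalized counts in Steap4AKO, against 3213 to 4388 in Steap4f/f. Ccr2, the monocyte chemokine receptor, had 1315 and 442 in Steap4AKO and 292 to 443 in Steap4f/f. Nr4a1 went the other way, with 181 and 206 in Steap4AKO and 332 to 764 in Steap4f/f. Ace, the largest part of the sum, had 2439 and 2404 in Steap4AKO, among the 1807 to 3036 of Steap4f/f. Of 7 B cell markers, 4 were measured and summed to 298 and 32.3 in Steap4AKO, against 5.67 to 75.4 in Steap4f/f, where Ms4a1 was listed at 0 in replicate 1. Of 7 T cell markers, 5 were measured, with sums of 209 and 93.4 in Steap4AKO and 65.0 to 111 in Steap4f/f. The 8 dendritic cell markers summed to 909 and 769 in Steap4AKO and to 712 to 811 in Steap4f/f, where Ccr7 was listed at 0 in replicate 1. Of 10 neutrophil markers, S100a8 and Csf3r were measured, with sums of 181 and 66.4 in Steap4AKO and 32.5 to 113 in Steap4f/f. Of 8 eosinophil markers, Ear2, which macrophages can express too, was measured, at 308 and 127 in Steap4AKO and 48.0 to 82.6 in Steap4f/f. The 6 blood endothelium markers summed to 19976 and 22735 in Steap4AKO and to 17434 to 19319.9 in Steap4f/f. The 6 stromal progenitor markers summed to 32193 and 31639.7 in Steap4AKO and to 36013 to 50485 in Steap4f/f. The part of these cells, of depot and of muscle in the macrophage gene values was not tested.

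**Figure D4:**
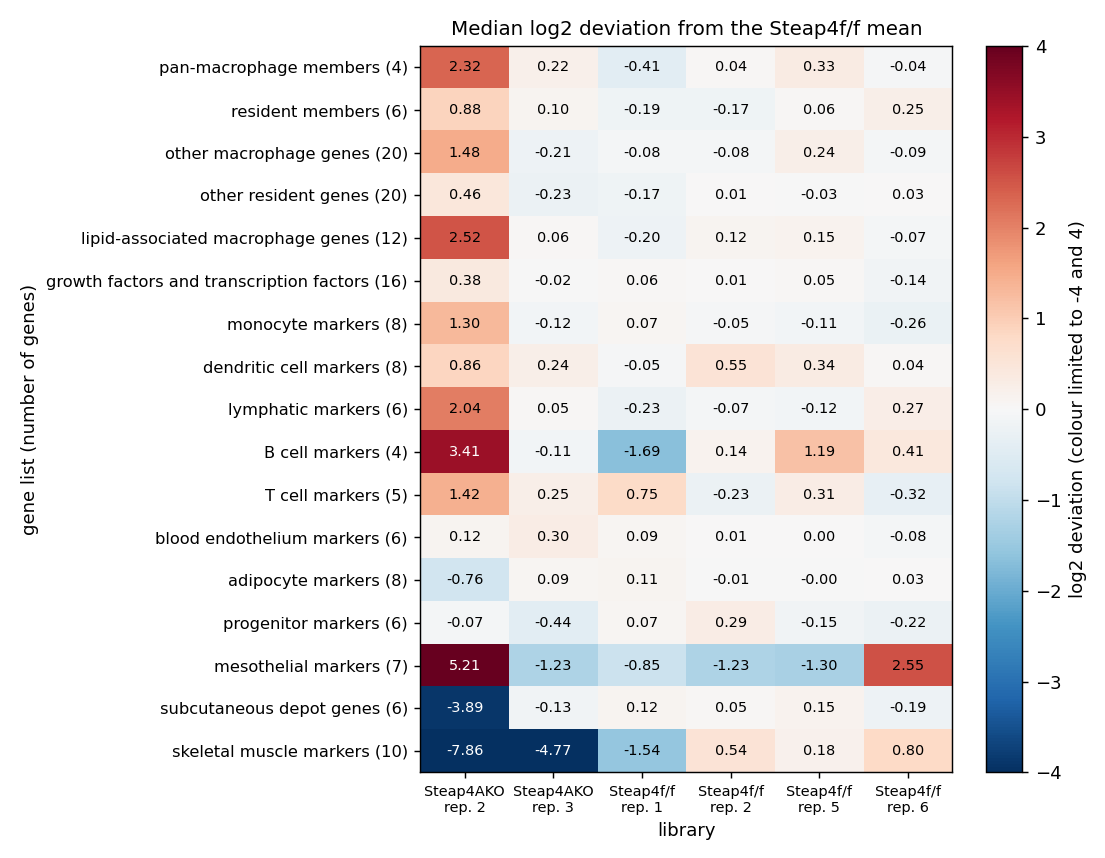
Median log2 deviation from the Steap4f/f mean of each gene list in each library, with Steap4AKO libraries left of Steap4f/f libraries and the number of genes in brackets; red is higher and blue lower, with colours limited to -4 and 4. Steap4AKO replicate 2 has 2.32 for the pan-macrophage genes, 0.88 for the resident genes, 5.21 for the mesothelial markers and -3.89 for the subcutaneous depot genes, while Steap4AKO replicate 3 has 0.22, 0.10, -1.23 and -0.13.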

How the data were processed

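RNA-seq of iWAT from 2 Steap4AKO and 4 Steap4f/f libraries was analysed from 1 deposited table of 15176 genes, in which the authors deposited a normalized signal (DESeq2 normalized counts, as the table is named). The submitters' processing notes list DESeq2 1.12.4, RSEM 1.3.3, STAR 2.7.0e and R 4.2.0, with GRCm38 and mm10, without saying what each did. The sources used here give neither strandedness nor annotation. Whole reads could not be recovered, since at most 56.3% of low values came within 0.1 of one, and no count test was run. The value of 1 read that fitted best put depth at roughly 23300000 and 18200000 reads in Steap4AKO and 15900000 to 19400000 in Steap4f/f. For Steap4AKO replicate 2, doubling that value would give 11600000 reads and leave 30.1% of low values whole instead of 43.9%, with 479 odd and 445 even multiples of the value used. Depth is therefore an estimate, and no counting intervals were computed.

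Symbols, coordinates and exon lengths came from GENCODE M21 on GRCm38 (15125 genes matched, 51 without a symbol), start regions from RefSeq (GRCm38.p6). Differences of log2(value + 1) were tested with limma 3.58.1 (R 4.3.3; variance prior following the mean) for 15006 genes with a mean of at least 10, two-sided, with Benjamini-Hochberg adjustment and a threshold of 0.05. This scale understates changes of low genes. Folds are ratios of deposited values. The fit was tried on simulated data with the same noise in every library. Those data hold no library that stands apart, so the trial does not bear on Steap4AKO replicate 2. Members and lists were chosen with earlier results of these data known. Besides the members and Steap4, named genes were, in each list of macrophage genes, called members and the 2 with the smallest p in each direction, and the 5 genes nearest to each profile. Markers and other named genes serve as values beside a result. Alternatives were other pseudocounts, filters, scalings, variance models, covariates, thresholds and each library left out. Sequences were aligned with Biopython 1.88 in Python 3.11.15.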

Additional observations from a re-analysis of the deposited data

Results flagged for a closer look

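Of 24 values screened for a library far from the others within the 4 Steap4f/f libraries, 1 was flagged, and chance flags about 1 in 20. Fabp5 had 3591 normalized counts in Steap4f/f replicate 6, below the other 3 Steap4f/f libraries, with a gap of 0.91 of the whole range. None of the 10 macrophage genes was flagged.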

How the results depend on the processing

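No paired analysis was possible because the groups share only replicate number 2. No macrophage gene passed the test under any alternative except without Steap4AKO replicate 3, where 6 of 10 did, all higher, and so did 821 of all 15003 tested genes (0 to 6 members over the libraries left out). The log2 differences there ran up to 2.95 and were 1.71 for Lyz2, 0.78 for Mrc1 and 1.05 for Folr2. That fit has 1 Steap4AKO library, assumed to vary like the others. All genes called numbered 71, against 1 with a pseudocount of 0.5, a mean of at least 50, a robust prior or either covariate (skeletal muscle or other macrophage genes), 123 with a pseudocount of 5, 13 without the trend, 119 with array weights, 410 at an adjusted p of 0.1 and 1 to 821 over the libraries left out (1 each without Steap4AKO replicate 2 or Steap4f/f replicate 2, 5 or 6, but 238 without Steap4f/f replicate 1). The pan-macrophage median of 1.27 was 0.34 with other macrophage genes as covariate, -0.74 with skeletal muscle as covariate and 0.22 to 2.32 over the libraries left out. The resident median of 0.47 was 0.24 and -0.39 with these covariates and 0.10 to 0.88 over the libraries left out. The resident minus pan-macrophage difference of -0.84 was -0.21 and 0.68 with these covariates and -1.52 to -0.16 over the libraries left out. Members without overlap numbered 2, where 14.1% of all tested genes were higher and 14.4% lower without overlap. They numbered 1 with a mean of at least 50 or quantile normalization, and 4 with equal sums. Over the libraries left out they numbered 2 to 9 (9 without Steap4AKO replicate 3, 4 without Steap4f/f replicate 5). A single Steap4AKO library lies outside the Steap4f/f range more easily. Steap4AKO replicate 3 alone was above all 4 Steap4f/f libraries for 24.4% of all tested genes and below them for 23.4%. These shares do not apply to the 9 members, which come from Steap4AKO replicate 2 alone. The share of all genes for that library alone was not computed, so the 9 cannot be read against a background. Shares for the other alternatives were not computed either. With the muscle covariate the log2 differences of Adgre1, Csf1r, Mpeg1, Lyz2, Mrc1, Lyve1, Folr2 and F13a1 were -0.88, -0.60, -0.59, -1.25, -1.36, -0.55, -0.87 and -0.22, with adjusted p of 0.646 or more in limma. With the macrophage covariate those of Mrc1 and Folr2 were -0.29 and -0.20. Without Steap4AKO replicate 2 those of Lyz2, Mrc1 and Folr2 were -0.022, -0.42 and -0.26. The cause of these shifts was not tested, and the muscle covariate runs with genotype and cannot be separated from it. Scaling to equal sums moved the median of all genes to 0.21. Timd4 is limited by its few reads.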
